A study of Rattus norvegicus with 8 samples.

Results

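The interferon gamma GTPases and the CXCR3 ligands are a group of 8 genes, Gbp2, Gbp5, Igtp, Ifi47, Irgm, Cxcl9, Cxcl10 and Cxcl11, whose mRNA was measured here in rat liver. They were found by their gene symbols in the platform annotation of the array, and 6 of the 8 had a probe set that carried no other symbol. These 6 genes were read on 8 probe sets, out of 31042 on the array after removal of controls, since Igtp and Cxcl9 had a pair each. All 8 passed the filter on low values and were among the 16279 probe sets tested. Gbp5 and Ifi47 were named by no probe set of the annotation used, and only their promoters are described.

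Livers came from male Sprague-Dawley rats in 4 groups of 2 arrays. Dex+GW3965 rats received GW3965 by gavage (50 mg/kg, 3 days) and, on the last day, dexamethasone (1.5 mg/kg) into the muscle. Dex rats had the gavage vehicle and the same dexamethasone injection, GW3965 rats had the same gavage and a saline injection, and vehicle rats had the gavage vehicle and saline. All livers were taken 24 h after the injection. Dexamethasone is a ligand of the glucocorticoid receptor and GW3965 a ligand of the liver X receptors. By their labels the replicate arrays of each group carry the same liver number followed by a or b, although the methods describe separate animals. Replicates may therefore be technical, and the p-values measure only the spread between these arrays.

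Interferon gamma, made mainly by T and NK cells, signals through its receptor and the kinases JAK1 and JAK2, and its targets often hold gamma-activated sites (GAS) in their promoters. Among its strongest targets are immunity-related GTPases and guanylate-binding proteins, which act inside cells against pathogens enclosed in vacuoles, and the chemokines CXCL9, CXCL10 and CXCL11, which attract activated T and NK cells through the receptor CXCR3. Interferon-stimulated response elements (ISRE) bind interferon regulatory factors and the complex formed after type I interferon, so that Cxcl10 and other genes can answer both kinds of interferon. In the liver these genes can be switched on in hepatocytes, Kupffer cells and endothelial cells.

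The promoters differed in which of these sites they held. Of the 8 genes, 5 are printed because they carry the contrasts described below: Igtp, Irgm and Cxcl10, which changed together, and Gbp2 and Cxcl9, which each followed another pattern. Each sequence runs 5′ to 3′ on the gene's own strand from 250 bases before to 50 bases after the RefSeq start site on the GRCr8 build, at chr10:42874797-42875096 (plus strand) for Igtp, chr10:33742529-33742828 (minus) for Irgm, chr2:234005477-234005776 (plus) for Gbp2, chr14:16006916-16007215 (plus) for Cxcl9 and chr14:15988816-15989115 (plus) for Cxcl10. Capitals mark matches to a GAS, an ISRE or an NF-kB site, on either strand.
Igtp: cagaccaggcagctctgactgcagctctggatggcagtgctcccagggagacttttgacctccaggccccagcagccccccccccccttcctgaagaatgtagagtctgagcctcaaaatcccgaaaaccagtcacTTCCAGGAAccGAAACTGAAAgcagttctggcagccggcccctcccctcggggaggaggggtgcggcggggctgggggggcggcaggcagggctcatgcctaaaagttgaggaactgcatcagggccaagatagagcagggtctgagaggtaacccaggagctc
Irgm: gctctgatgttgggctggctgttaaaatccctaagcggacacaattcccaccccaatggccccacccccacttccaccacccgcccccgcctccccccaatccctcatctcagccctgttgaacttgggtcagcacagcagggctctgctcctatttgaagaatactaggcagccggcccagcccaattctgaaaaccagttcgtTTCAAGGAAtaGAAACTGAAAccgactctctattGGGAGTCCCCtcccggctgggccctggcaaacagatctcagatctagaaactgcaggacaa
Gbp2: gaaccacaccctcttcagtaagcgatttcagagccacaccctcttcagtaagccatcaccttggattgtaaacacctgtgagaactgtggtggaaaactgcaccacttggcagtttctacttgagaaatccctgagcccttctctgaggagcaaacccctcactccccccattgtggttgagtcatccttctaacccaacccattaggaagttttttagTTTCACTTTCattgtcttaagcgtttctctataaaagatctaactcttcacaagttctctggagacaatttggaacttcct
Cxcl9: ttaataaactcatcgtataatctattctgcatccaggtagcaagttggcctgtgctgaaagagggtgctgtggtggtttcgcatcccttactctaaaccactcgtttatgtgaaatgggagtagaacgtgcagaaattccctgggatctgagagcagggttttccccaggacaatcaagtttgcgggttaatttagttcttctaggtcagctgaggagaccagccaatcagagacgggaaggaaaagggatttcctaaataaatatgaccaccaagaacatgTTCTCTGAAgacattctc
Cxcl10: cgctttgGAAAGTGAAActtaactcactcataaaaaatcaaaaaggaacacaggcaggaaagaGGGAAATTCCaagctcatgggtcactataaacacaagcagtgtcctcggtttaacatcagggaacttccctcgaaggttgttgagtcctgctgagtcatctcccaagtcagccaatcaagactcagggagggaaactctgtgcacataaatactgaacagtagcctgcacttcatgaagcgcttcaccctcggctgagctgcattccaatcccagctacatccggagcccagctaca

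The letters searched on both strands were TTCNNNGAA for a GAS, found in 8.87% of 33469 rat promoters of this length, and GAAANNGAAA for an ISRE, found in 3.92%. An NF-kB site was present in 4.18%, and the palindromic glucocorticoid response element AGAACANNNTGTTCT was present in 5 promoters, 0.0149%, none of them a promoter of the 8 genes. Igtp held a GAS at -114 to -106 and an ISRE at -103 to -94, and Irgm held a GAS at -45 to -37 and an ISRE at -34 to -25. In both genes the GAS came first and the ISRE lay 2 bases further on, on the gene's own strand. The GAS letters read the same on either strand. Irgm also held an NF-kB site at -11 to -2. Gbp2 held a single ISRE at -31 to -22, on the opposite strand. Cxcl9 held a single GAS at 33 to 41 after the start site, and Cxcl10 an ISRE at -243 to -234 and an NF-kB site at -187 to -178. Of the promoters that are not printed, Ifi47 held 2 GAS, Gbp5 an ISRE and 3 NF-kB sites, and Cxcl11 a GAS and an NF-kB site. A match shows only that these letters stand in the window.

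**Figure D1:**
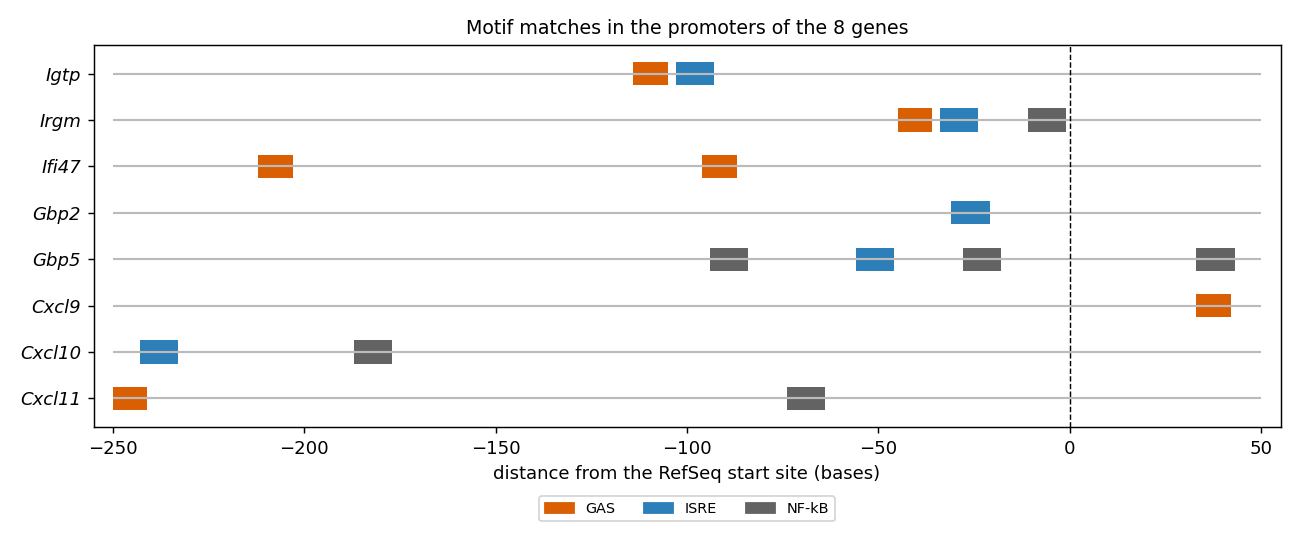
Matches to the GAS, ISRE and NF-kB motifs (boxes) in the promoters of the 8 genes, by distance in bases from the RefSeq start site (dashed line at 0). In Igtp and in Irgm a GAS is followed by an ISRE 2 bases further on.

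The arrangement of a GAS, 2 bases and an ISRE, which was searched for only after it had been seen in Igtp and Irgm, occurred in 7 of the 33469 promoters, or 0.0209%. The others belonged to Irgm2 and Ifgga2l2, also of the GTPase family, to Parp14, an ADP-ribosyltransferase, to Stra8, a germ cell gene, and to LOC134480693. Irgm2 lies next to Igtp on chromosome 10, and Irgm lies near Ifi47 on the same chromosome. Cxcl11, Cxcl10 and Cxcl9 stand side by side on chromosome 14, and Gbp5, Gbp7, Gbp4 and Gbp2 follow each other on chromosome 2.

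The 6 measured genes fell into several patterns over the 4 groups. Igtp, Irgm and Cxcl10 were raised by dexamethasone and reached their highest level in Dex+GW3965 livers. Cxcl9 was lowered by dexamethasone and raised by GW3965, Gbp2 was raised by GW3965 with or without dexamethasone, and Cxcl11 was lowered by dexamethasone alone. Signals below are on the log2 scale as deposited, and differences are log2 differences tested with limma, adjusted over all 16279 probe sets and called at an adjusted p under 0.05. Because whole liver was measured, more RNA per cell cannot be told apart from more cells of a type that expresses the gene.

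**Figure D2:**
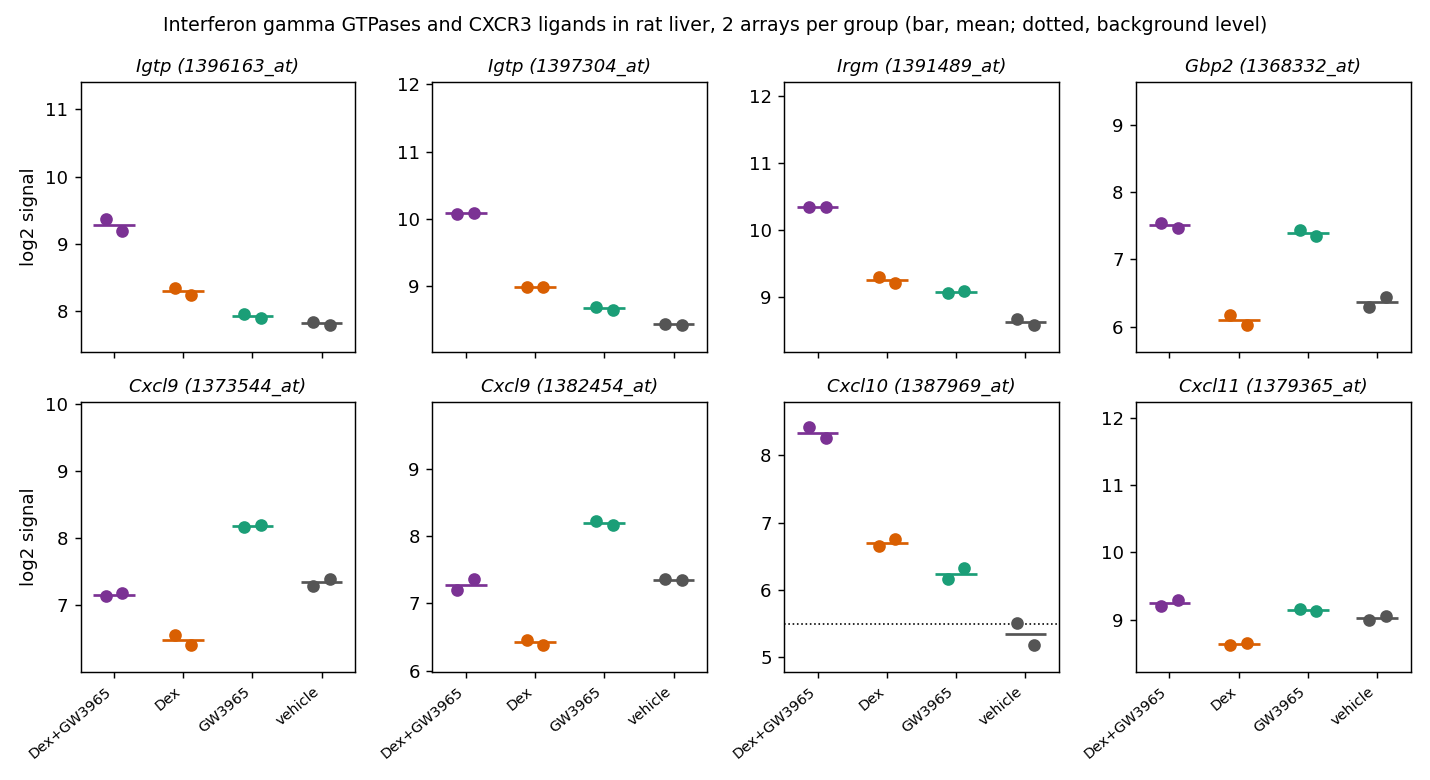
Log2 signal (y axis, spanning an equal range in each panel) of each of the 8 probe sets on the 2 arrays (points) of each group, with the group mean as a bar. The dotted line marks the background level of 5.49, and the vehicle mean of Cxcl10 is the one mean that lies under it.

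Igtp encodes an immunity-related GTPase that in mice is needed for resistance to some vacuolar parasites. Its brighter probe set, 1397304_at, had log2 signals of 10.07 and 10.09 in Dex+GW3965 livers, 8.99 and 8.99 in Dex livers, 8.70 and 8.65 in GW3965 livers, and 8.44 and 8.43 in vehicle livers. No groups overlapped, and all neighbours in this order differed by the test. Against vehicle, the log2 difference was 1.65 ± 0.05 (SE, n = 2 each; adjusted p = 2.13e-14) in Dex+GW3965 livers, a 3.14-fold higher level. It was 0.55 (adjusted p = 4.96e-08) in Dex livers and 0.24 (adjusted p = 0.00211) in GW3965 livers. The second probe set of Igtp, 1396163_at, had log2 signals of 9.37 and 9.20 in Dex+GW3965 livers, 8.35 and 8.24 in Dex livers, 7.96 and 7.90 in GW3965 livers, and 7.84 and 7.80 in vehicle livers. It ran in the same order, and only its difference of 0.11 between GW3965 and vehicle livers (95% interval -0.04 to 0.25; adjusted p = 0.313) did not pass the test. A further probe set, 1375796_at, carries Igtp together with Igtpl1 and Irgm2. It lay below background on every array and was not tested, with log2 signals of 5.08 and 4.87 in Dex+GW3965 livers, 5.40 and 5.36 in Dex livers, 3.88 and 3.75 in GW3965 livers, and 3.87 and 4.09 in vehicle livers.

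Irgm encodes another GTPase of the family, one that in mice keeps the effector GTPases of the family off the cell's own membranes. Its log2 signals were 10.34 and 10.35 in Dex+GW3965 livers, 9.30 and 9.21 in Dex livers, 9.07 and 9.09 in GW3965 livers, and 8.68 and 8.60 in vehicle livers. The order of the groups was that of Igtp, again without overlap. Irgm was 3.27-fold higher in Dex+GW3965 than in vehicle livers, a log2 difference of 1.71 ± 0.05 (SE, n = 2 each; adjusted p = 2.21e-14). The single compounds gave 0.62 (adjusted p = 1.93e-08) for Dex and 0.44 (adjusted p = 6.44e-06) for GW3965. Dex livers stood 0.18 above GW3965 livers (adjusted p = 0.0103), a call that was lost without Dex array a (adjusted p = 0.133) or GW3965 array a (0.0758).

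Gbp2 encodes a guanylate-binding protein, a large GTPase that in mice gathers on the vacuoles of pathogens. It had log2 signals of 7.55 and 7.47 in Dex+GW3965 livers, 6.17 and 6.03 in Dex livers, 7.44 and 7.35 in GW3965 livers, and 6.30 and 6.44 in vehicle livers. All 4 arrays with GW3965 lay above all 4 arrays without it. Gbp2 was 2.04-fold higher in GW3965 than in vehicle livers (log2 difference 1.03 ± 0.09, SE, n = 2 each; adjusted p = 2.23e-07) and 2.66-fold higher in Dex+GW3965 than in Dex livers (1.41; adjusted p = 2.9e-09). Between Dex+GW3965 and GW3965 livers it differed by 0.11 (95% interval -0.08 to 0.31; adjusted p = 0.366). Dexamethasone alone gave -0.27 (adjusted p = 0.0253), and this call was lost without vehicle array b (-0.20; adjusted p = 0.162) or Dex array b (-0.20; adjusted p = 0.186).

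Cxcl10, a chemokine that answers both type I interferon and interferon gamma, had log2 signals of 8.43 and 8.25 in Dex+GW3965 livers, 6.65 and 6.75 in Dex livers, 6.15 and 6.33 in GW3965 livers, and 5.51 and 5.18 in vehicle livers. The groups did not overlap, and the vehicle mean of 5.35 lay under the background level of 5.49, the mean of the array medians. Folds against vehicle are therefore lower bounds, taken against the higher of the array median and the probe set's own signal. Cxcl10 was at least 7.16-fold higher in Dex+GW3965 livers (adjusted p = 4.92e-13), at least 2.30-fold higher in Dex livers (adjusted p = 1.99e-08) and at least 1.67-fold higher in GW3965 livers (adjusted p = 1.64e-05). Between measured levels, it was 3.11-fold higher in Dex+GW3965 than in Dex livers and 4.28-fold higher in Dex+GW3965 than in GW3965 livers (adjusted p = 6.68e-09 and 6.89e-11). Dex livers exceeded GW3965 livers by 0.46 (adjusted p = 0.00308), which was 0.37 (adjusted p = 0.0545) without GW3965 array a.

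Cxcl9, the ligand most closely tied to interferon gamma, went the other way with dexamethasone. Its probe set 1382454_at had log2 signals of 7.20 and 7.35 in Dex+GW3965 livers, 6.46 and 6.38 in Dex livers, 8.22 and 8.16 in GW3965 livers, and 7.36 and 7.34 in vehicle livers. The GW3965 arrays were the highest and the Dex arrays the lowest, while the arrays of Dex+GW3965 overlapped those of vehicle. Dexamethasone lowered Cxcl9 1.90-fold (log2 difference -0.93 ± 0.08, SE, n = 2 each; adjusted p = 2.62e-08), and GW3965 raised it 1.79-fold (0.84; adjusted p = 4.63e-07). Dex+GW3965 livers differed from vehicle livers by -0.07 (95% interval -0.24 to 0.09; adjusted p = 0.524) and from GW3965 livers by -0.91 (adjusted p = 4.24e-08). The second probe set, 1373544_at, had log2 signals of 7.13 and 7.18 in Dex+GW3965 livers, 6.56 and 6.42 in Dex livers, 8.16 and 8.20 in GW3965 livers, and 7.29 and 7.40 in vehicle livers. It gave the same calls, at -0.86 for Dex and 0.84 for GW3965 against vehicle.

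Cxcl11, the third CXCR3 ligand, varied least. Its log2 signals were 9.21 and 9.30 in Dex+GW3965 livers, 8.62 and 8.66 in Dex livers, 9.16 and 9.12 in GW3965 livers, and 8.99 and 9.05 in vehicle livers. Only the Dex arrays stood well apart, below the others. Cxcl11 was lower in Dex than in vehicle livers by -0.38 ± 0.05 (SE, n = 2 each; adjusted p = 1.34e-05) and higher in Dex+GW3965 than in vehicle livers by 0.23 (adjusted p = 0.00189). GW3965 livers did not pass the test against vehicle (0.12; 95% interval 0.01 to 0.23; adjusted p = 0.126), except after quantile normalization of the arrays (0.18; adjusted p = 0.0224). Dex+GW3965 and GW3965 livers, neighbours at the top of the order, differed by 0.11 (adjusted p = 0.11).

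Counted over the 8 probe sets, dexamethasone against vehicle called 4 higher (both of Igtp, Irgm and Cxcl10) and 4 lower (both of Cxcl9, Gbp2 and Cxcl11). Among all probe sets tested it called 17.2% higher and 24.7% lower. The median log2 difference was 0.10 over the 8 and -0.01 over all. The median size, whatever its sign, was 0.59 over the 8 and 0.17 over all.

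GW3965 against vehicle called 6 of the 8 higher, where 5.92% of all probe sets were higher and 14.5% lower. Cxcl11 and the dimmer probe set of Igtp did not pass. The median log2 difference was 0.64 over the 8 and -0.03 over all. Dex+GW3965 against vehicle also called 6 higher, where 15.6% of all were higher and 21.2% lower, and here both probe sets of Cxcl9 did not pass. The median was 1.30 over the 8 and -0.02 over all. These comparisons share the vehicle arrays.

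What GW3965 added in dexamethasone-treated liver had a single direction. All 8 probe sets were higher in Dex+GW3965 than in Dex livers, with log2 differences of 0.61 (Cxcl11) to 1.64 (Cxcl10), where 13.3% of all probe sets were higher and 9.38% lower. The median was 1.04 over the 8. Set against GW3965 livers, Dex+GW3965 livers had 4 higher (Cxcl10, Irgm and both of Igtp) and 2 lower (both of Cxcl9), with Gbp2 and Cxcl11 not called, where 19% of all were higher and 16.8% lower. Dex against GW3965 livers, the direct comparison of the single compounds, called 4 higher and 4 lower, where 19.3% were higher and 19.9% lower. The largest differences among the members there were those of Cxcl9, 3.41-fold lower in Dex than in GW3965 livers on 1382454_at (log2 difference -1.77; adjusted p = 3.56e-12), and of Gbp2, 2.46-fold lower in Dex livers (-1.30; adjusted p = 1.93e-09).

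**Figure D3:**
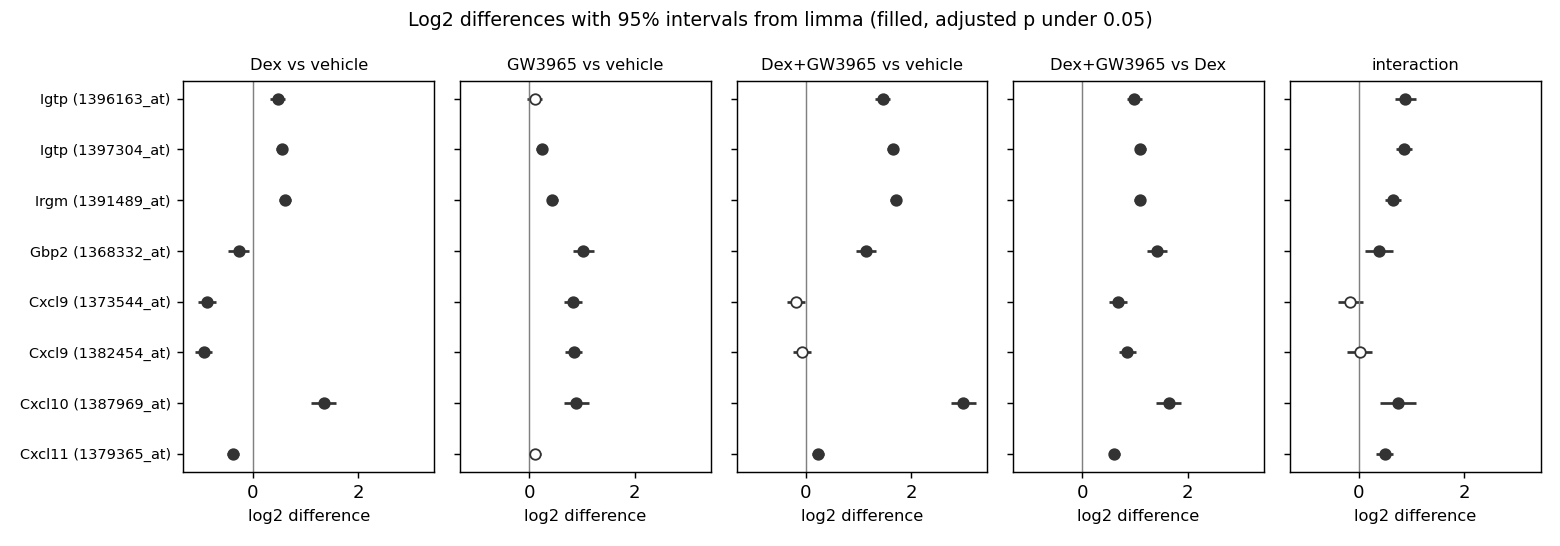
Log2 differences (x axis) of the 8 probe sets in 4 comparisons and in the interaction, with 95% intervals from limma. Filled points passed an adjusted p under 0.05. All 8 lie above 0 in Dex+GW3965 against Dex, and the probe sets of Igtp, Irgm and Cxcl10 lie above 0 in every panel.

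The interaction asks whether dexamethasone acted differently with GW3965 than without it, and was the log2 effect of dexamethasone in GW3965-treated livers minus that in livers without GW3965. It was called above 0 for 6 of the 8, where 15.8% of all probe sets were higher and 6.94% lower, and its median was 0.57 over the 8 and 0.03 over all. After quantile normalization the calls over all probe sets were split as 1843 higher and 1589 lower, in place of 2572 and 1129, so the share that was higher depends on the scaling. Igtp had interactions of 0.88 and 0.86 (adjusted p = 2.96e-06 and 8.24e-08), Irgm of 0.65 (adjusted p = 4.28e-06) and Cxcl10 of 0.74 (adjusted p = 0.00242), the last with a vehicle level not above background. For Igtp and Irgm the effect of both compounds together thus exceeded the sum of their single effects on the log2 scale. Cxcl11 had 0.49 (adjusted p = 0.000116), with dexamethasone effects of 0.11 in the presence of GW3965 and -0.38 in its absence. Cxcl9, at 0.01 and -0.17 (adjusted p = 0.948 and 0.326), did not pass, with 95% intervals of -0.22 to 0.25 and -0.41 to 0.07. Gbp2 had 0.38 (adjusted p = 0.0408), which did not stay called without either array of Dex+GW3965 or of GW3965, or without Dex array b or vehicle array b (adjusted p up to 0.155).

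Across the 8 arrays, Irgm correlated with Igtp (1397304_at) at r = 0.991 and with Cxcl10 at 0.991, while Cxcl9 (1382454_at) correlated with Irgm at -0.136. The chemokine genes that stand side by side on chromosome 14 were not alike, with r = -0.191 between Cxcl10 and Cxcl9 and 0.313 between Cxcl10 and Cxcl11. Gbp2 was closest to Cxcl11 among the members, at 0.873. These values describe 8 arrays that share 4 treatments and are not tests.

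Among 9837 other genes, those most like Igtp over the 8 arrays were Rnf114 (r = 0.998), an interferon-induced ubiquitin ligase, and Ifi35 (0.997), an interferon-induced protein. Irgm had Ifi35 (0.997) and Rnf114 (0.996) at its top, and Cxcl10 had Irgm (0.991) and Ifi35 (0.99). The gene most like Gbp2 was Psmb9 (0.99), a subunit of the immunoproteasome, whose log2 signals were 9.40 and 9.45 in Dex+GW3965 livers, 8.62 and 8.49 in Dex livers, 9.35 and 9.27 in GW3965 livers, and 8.54 and 8.65 in vehicle livers. Psmb9 therefore ran at a higher level in all arrays with GW3965, as Gbp2 did. Cxcl9 was most like Socs2 (0.992), a target of growth hormone signaling, and Cxcl11 most like Zfp467 (0.992), a zinc finger gene.

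Further carriers of the GAS and ISRE arrangement were read on the array where a probe set named them alone. Parp14 on 1372034_at had log2 signals of 9.65 and 9.58 in Dex+GW3965 livers, 8.82 and 8.77 in Dex livers, 8.73 and 8.73 in GW3965 livers, and 8.57 and 8.63 in vehicle livers. Irgm2, probed by 1376151_a_at, had log2 signals of 11.93 and 11.88 in Dex+GW3965 livers, 11.38 and 11.38 in Dex livers, 11.30 and 11.36 in GW3965 livers, and 11.24 and 11.31 in vehicle livers. Both genes were highest in Dex+GW3965 livers, with the other groups close together. Their interactions were 0.68 for Parp14 (adjusted p = 3.39e-06; 0.87 on its second probe set) and 0.47 for Irgm2 (adjusted p = 6.53e-06). In Dex against vehicle both genes were called higher, Parp14 by 0.20 and 0.18 (adjusted p = 0.00543 and 0.0416) and Irgm2 by 0.10 (adjusted p = 0.0446). Neither Parp14 probe set passed in GW3965 against vehicle (0.13 and 0.02; adjusted p = 0.0895 and 0.905), and neither did Irgm2 (0.06; adjusted p = 0.367). These genes were looked at because of the shared arrangement, which itself had been noticed in members that moved together.

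The list of other GTPases held 16 genes, of which 6 were tested, and it includes Mx1, Mx2 and Rsad2, which are best known as antiviral genes of type I interferon. Rsad2 encodes a radical SAM enzyme and not a GTPase. In Dex+GW3965 livers 6 of 6 were higher than in vehicle livers and 6 of 6 higher than in Dex livers. Of all probe sets, 15.6% and 13.3% were higher in these comparisons. Gbp7, a guanylate-binding protein gene 2 places from Gbp2 on chromosome 2, had log2 signals of 9.02 and 9.06 in Dex+GW3965 livers, 7.63 and 7.51 in Dex livers, 9.04 and 9.03 in GW3965 livers, and 8.27 and 8.23 in vehicle livers. It thus repeated the pattern of Gbp2 with a clearer decrease, at -0.68 for dexamethasone (adjusted p = 3.33e-08) and 0.79 for GW3965 (adjusted p = 2.75e-08). Its interaction was 0.69 (adjusted p = 1.09e-05).

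Upstream of the members, Ifng itself had log2 signals of 3.12 to 3.37 on all arrays, below background, and so did Cxcr3, at 3.94 to 4.64. The receptor chain Ifngr1 was lower in Dex than in vehicle livers by -0.21 (adjusted p = 0.00389), and the kinase Jak1 by -0.62 (adjusted p = 2.02e-09). Between Dex+GW3965 and Dex livers, Ifngr1 differed by -0.13 (adjusted p = 0.0965), Ifngr2 by 0.05 (adjusted p = 0.724), Jak1 by 0.02 (adjusted p = 0.787) and Jak2 by -0.11 (adjusted p = 0.586).

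Transcription factors of the pathway split under dexamethasone, with 4 of 7 tested genes higher and 3 lower. Of all probe sets, 17.2% were higher and 24.7% lower in that comparison. Irf1, a factor induced by interferon gamma, had log2 signals of 7.83 and 7.85 in Dex+GW3965 livers, 7.29 and 7.39 in Dex livers, 8.29 and 8.22 in GW3965 livers, and 8.19 and 8.16 in vehicle livers. Dexamethasone lowered it by -0.84 (adjusted p = 1.07e-08) and GW3965 raised it by 0.50 in dexamethasone-treated livers (adjusted p = 2.2e-05). Irf8, a factor of macrophages and other myeloid cells, was lower by -1.30 (adjusted p = 2.62e-09). On the type I side, Irf7 was higher in Dex than in vehicle livers by 2.59 (adjusted p = 5.11e-17) and Irf9, the DNA-binding part of the type I complex, by 1.36 (adjusted p = 2.74e-11). Irf7 had log2 signals of 11.32 and 11.33 in Dex+GW3965 livers, 10.30 and 10.19 in Dex livers, 9.02 and 9.01 in GW3965 livers, and 7.61 and 7.70 in vehicle livers. Its groups came in the order seen for Igtp, Irgm and Cxcl10. The interaction of Irf7 was -0.27 (adjusted p = 0.01), however, opposite in sign to those of Igtp and Irgm.

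The type I interferon targets, in which Irf7, Usp18, Mx1, Mx2 and Rsad2 also appear in other lists, were higher in 16 of 16 tested genes in Dex livers, 15 in GW3965 livers and 16 in Dex+GW3965 livers, each against vehicle. The gene that did not pass with GW3965 was Rig1, an RNA sensor (0.13; adjusted p = 0.265). Against vehicle, 17.2% of all probe sets were higher in Dex, 5.92% in GW3965 and 15.6% in Dex+GW3965 livers. The median log2 difference of the list was 2.04 in Dex, 0.50 in GW3965 and 3.13 in Dex+GW3965 livers. In the interaction, the list was split, with 7 of 16 genes called higher and 5 lower. Usp18, which restrains signaling by the type I receptor, was the one called gene among 5 tested inhibitors under dexamethasone, at 3.91 (adjusted p = 2.12e-18), with log2 signals of 11.17 and 11.20 in Dex+GW3965 livers, 10.61 and 10.54 in Dex livers, 8.34 and 8.50 in GW3965 livers, and 6.61 and 6.73 in vehicle livers.

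Other interferon gamma targets were mixed. Of 20 tested, 5 were higher and 8 lower in Dex than in vehicle livers. In GW3965 livers 7 were higher and 1 lower, and in Dex+GW3965 livers 9 and 6. Over all probe sets, 17.2% were higher and 24.7% lower in Dex, 5.92% and 14.5% in GW3965, and 15.6% and 21.2% in Dex+GW3965 livers. Between Dex+GW3965 and Dex livers, 13 were higher and the other 7 did not pass, where 13.3% of all were higher and 9.38% lower. Ubd, a ubiquitin-like protein of the immunoproteasome pathway, was lower in Dex livers by -2.56 (adjusted p = 9.91e-15) and higher in GW3965 livers by 0.81 (adjusted p = 3.28e-07), the directions of Cxcl9. Its log2 signals were 8.11 and 8.16 in Dex+GW3965 livers, 7.38 and 7.66 in Dex livers, 10.81 and 10.96 in GW3965 livers, and 10.10 and 10.05 in vehicle livers. Unlike Cxcl9, Ubd stayed under vehicle in Dex+GW3965 livers (-1.94; adjusted p = 5.82e-13). Cd74, the chaperone of MHC class II, was lower by -1.72 in Dex livers (adjusted p = 3.12e-15). The death ligand Tnfsf10 was higher by 1.28 (adjusted p = 5.06e-10) and Sp110, a nuclear body protein, by 0.94 (adjusted p = 1.22e-08).

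**Figure D4:**
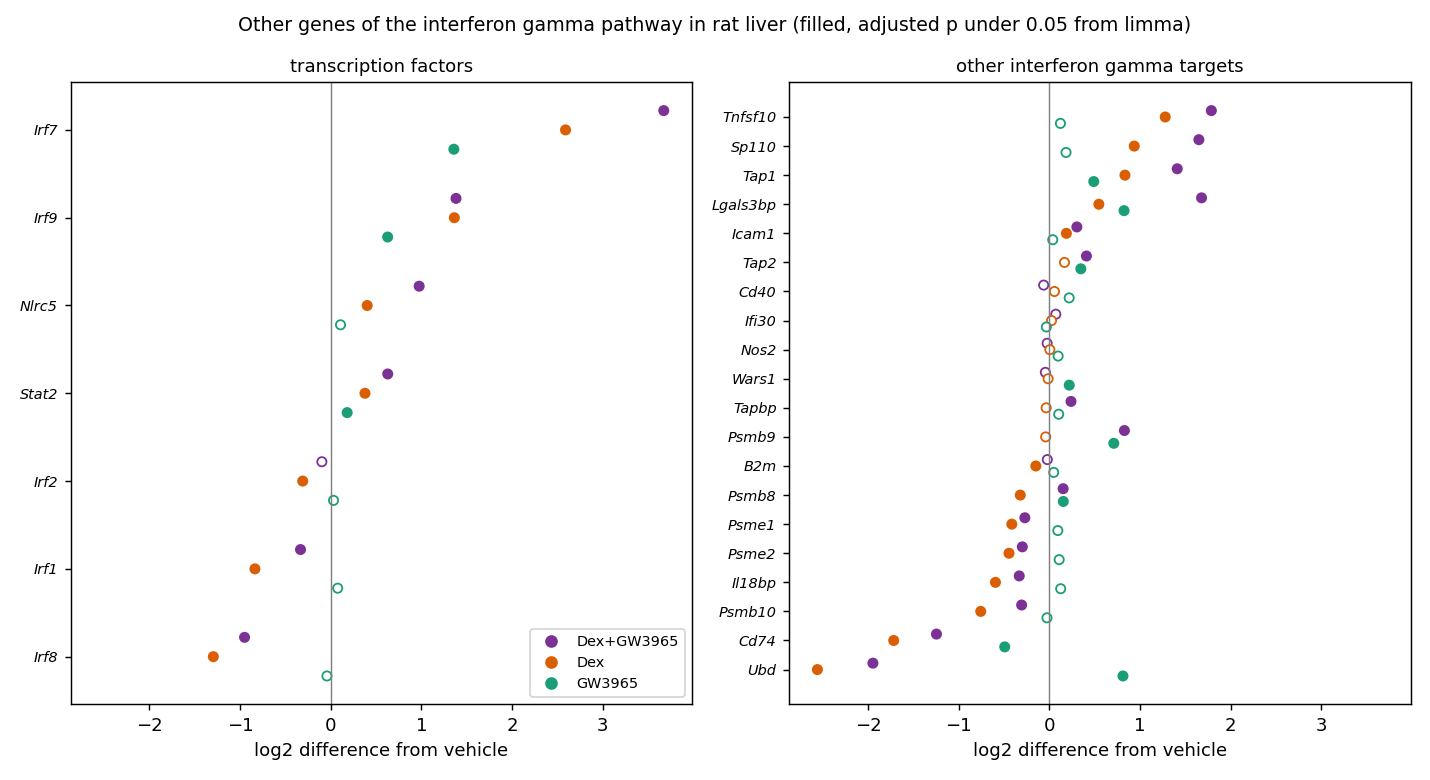
Log2 differences from vehicle (x axis) of the tested transcription factors (left) and other interferon gamma targets (right) in Dex+GW3965, Dex and GW3965 livers. Filled points passed an adjusted p under 0.05 from limma. Irf7 and Irf9 lie to the right and Irf1 and Irf8 to the left under Dex, and Ubd is far left under Dex and right of 0 under GW3965.

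Of 9 genes listed with CXCR3 and other chemokines, 4 were tested. Cxcl12, a chemokine of stromal and endothelial cells, had log2 signals of 10.08 and 10.01 in Dex+GW3965 livers, 9.27 and 9.30 in Dex livers, 11.92 and 11.91 in GW3965 livers, and 11.60 and 11.69 in vehicle livers. On this probe set, 1388583_at, its group means stood in the order of those of Cxcl9, and so did those of 1387655_at. On 1369633_at the GW3965 arrays (11.01 and 10.92) lay under the vehicle arrays (11.03 and 11.07). On 1388583_at, Cxcl12 was lower in Dex than in vehicle livers by -2.35 (adjusted p = 1.64e-17). It was higher in GW3965 than in vehicle livers by 0.27 (adjusted p = 0.000177) and higher in Dex+GW3965 than in Dex livers by 0.75 (adjusted p = 4.94e-10). The paper, from its own array test and real-time PCR, reports no significant influence of GW3965 on the lowering of Cxcl12 by dexamethasone. Ccl5, a T cell attractant, was lower by -1.13 in Dex livers (adjusted p = 5.02e-08) and by -1.17 in Dex+GW3965 livers (adjusted p = 3.83e-08). Its difference between Dex+GW3965 and Dex livers was -0.04 (adjusted p = 0.806).

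By their means over all 8 arrays, hepatocyte markers were above background in 9 of 9 cases, with summed linear signals of 154400 to 163100 over all arrays. Summed signals of markers of other cell types, counted as above background in the same way, differed between the groups. The summed linear signal of 9 Kupffer cell and macrophage markers, all above background, was 4612 to 4700 in Dex+GW3965 livers, 4328 to 4374 in Dex livers, 6501 to 6520 in GW3965 livers and 4929 to 5025 in vehicle livers. By this sum the groups stood in the order seen for the means of Cxcl9, with GW3965 at the top and Dex at the bottom. Among these markers, Cd5l (0.75) and Clec4f (0.51) rose most in GW3965 against vehicle livers. A sum of marker signals does not count cells. Single markers did not all follow the sum. Against vehicle, 1 was higher and 5 lower in Dex livers, and likewise 1 and 5 in Dex+GW3965 livers. Of all probe sets, 17.2% were higher and 24.7% lower in Dex livers, and 15.6% and 21.2% in Dex+GW3965 livers. The higher markers were Cd163 in Dex livers (0.29; adjusted p = 0.0351) and Clec4f in Dex+GW3965 livers (0.26; adjusted p = 0.000232). In GW3965 livers 5 markers were higher and 0 lower, where 5.92% of all probe sets were higher and 14.5% lower. Of 9 T cell markers only 2 were above background, Cd3e, Cd3d, Cd3g and Cd8a were not, and the sum was 324 to 332 in Dex+GW3965 livers, 327 to 339 in Dex livers, 386 to 388 in GW3965 livers and 414 to 422 in vehicle livers. NK cell markers, 2 of 8 above background, summed to 307 to 314 in Dex+GW3965 livers, 239 to 257 in Dex livers, 311.5 to 311.7 in GW3965 livers and 288 to 291 in vehicle livers. Single NK cell markers went in opposite directions. In Dex+GW3965 against vehicle livers the receptor Klrk1 was higher by 0.49 (adjusted p = 0.000948) and Prf1, which encodes perforin, lower by -0.72 (adjusted p = 4.94e-05). Gzmb was called higher in Dex+GW3965 livers (at least 1.085-fold; adjusted p = 4.65e-05), against a vehicle level not above background. It was also called in Dex (adjusted p = 0.0098) and GW3965 livers (adjusted p = 0.0106), where neither level compared was above background. In Dex against vehicle livers, Prf1 was at least 1.77-fold lower (adjusted p = 3.41e-06) and Klrk1 differed by 0.01 (adjusted p = 0.946). Sinusoidal endothelial markers, 5 of 5 above background, summed to 2560 to 2603 in Dex+GW3965 livers, 2957 to 2994 in Dex livers, 3634 to 3641 in GW3965 livers and 3623 to 3672 in vehicle livers. The part of these cell types in the results on the 8 genes was not tested.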

How the data were processed

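The authors deposited log2 signals from 8 Affymetrix rat genome arrays with 31099 probe sets, hybridized from 5 µg of total RNA. Per the methods, the authors re-mapped the probes to UniGene and read perfect-match probes only, subtracting background as in MAS. The processing notes of the submitters list MAS5. Any later normalization is not given in the sources used here. The log2 scale was inferred from the values, which ran between 2.50 and 14.9. Array medians lay between 5.47 and 5.51, so no normalization was added, and replicate arrays differed by a median of 0.0698 to 0.0891.

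After removal of 57 control probe sets, probe sets exceeding their array's median on at least 2 arrays were kept (16279 of 31042, naming 9840 genes). Of the 31042, 20826 carried 1 symbol, 436 several and 9780 none, and symbols were updated by gene ID. A group-means model over all 8 arrays was fitted with limma 3.58.1 in R 4.3.3 (eBayes with an intensity trend, 4 residual and 12.7 prior degrees of freedom), with Benjamini-Hochberg adjustment. The script was tested on simulated data.

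The genes named are every member, up to 5 of the largest called genes of each list, and genes from the 3 most correlated with each member. Each listed gene was read on its brightest probe set with 1 symbol. Neutrophil, dendritic, B and stellate cell markers were also listed. Named outside this rule, after values were seen, were Parp14, single cell type markers, and genes of the lists that are given as not called or not above background. The members and lists were chosen with earlier results of these data known. Motifs were searched in RefSeq promoters of GRCr8. Alternatives were quantile normalization, other filters, no trend, letters as a replicate block, only the arrays compared, each array left out, and the methods' t-test. Arrays give no counts, so their number limits the precision.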

Additional observations from a re-analysis of the deposited data

Results flagged for a closer look

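By limma's interaction term, the effect of dexamethasone was called different between livers with and without GW3965 for 6 of the 8 probe sets. Over all probe sets tested, 15.8% were called higher and 6.94% lower, a split that depended on the scaling. The call of Gbp2 was lost after quantile normalization, with no filter and with the letters as a replicate block. The effect with GW3965 minus that without was 0.88 and 0.86 for the probe sets of Igtp, 0.65 for Irgm, 0.74 for Cxcl10, 0.49 for Cxcl11 and 0.38 for Gbp2, all as log2 differences. The value of Cxcl10 uses a vehicle level not above background, so the size of its effect without GW3965 is only a lower bound and a larger effect with GW3965 is not established. Dexamethasone raised Igtp and Irgm in both settings, and more with GW3965. For Cxcl11 it gave 0.11 with GW3965 and -0.38 without it, and for Gbp2 0.11 with GW3965 and -0.27 without it. Groups of 2 arrays are too small for a test of single outlying arrays.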

How the results depend on the processing

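No called difference of a member changed its direction under the alternatives run. The letters a and b did not pair arrays across groups (correlations of deviations -0.232 to 0.083), and with them as a replicate block 55 of 56 member results stayed on their side of the threshold, the interaction of Gbp2 being lost (adjusted p = 0.0517). That interaction was also lost after quantile normalization (0.0503) and with no filter (0.0573). The call of Gbp2 in Dex against vehicle was lost with only the arrays compared (0.0706), and that of Irgm in Dex against GW3965 without the intensity trend (0.0562). The cause of these losses was not tested. Leaving out 1 array at a time gave 1803 to 3243 calls over all probe sets in GW3965 against vehicle (main count 3325; 2128 without GW3965 array a, 1803 without b). It gave 2378 to 4022 in Dex+GW3965 against Dex (main count 3700; 2403 without Dex array b, 2378 without Dex+GW3965 array b), and 2 to 4 members higher in Dex against GW3965, the 2 without GW3965 array a. Quantile normalization split the calls of GW3965 against vehicle as 1208 higher and 1505 lower, in place of 963 and 2362.

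The methods' t-test on the log ratios of same-lettered arrays, with 1 degree of freedom, called 0 members after Benjamini-Hochberg adjustment in each of the 6 comparisons, and over all probe sets 1 in Dex, 3 in GW3965 and 2 in Dex+GW3965 against vehicle, 1 in Dex+GW3965 against Dex, 1 in Dex+GW3965 against GW3965 and 2 in Dex against GW3965. At an unadjusted p under 0.05 it called 2913, 1896, 2335, 2079, 2765 and 3236 probe sets in these comparisons, with 3 members higher and 2 lower in Dex, 3 higher in GW3965 and 4 higher in Dex+GW3965 against vehicle, 5 higher in Dex+GW3965 against Dex, 4 higher and 1 lower in Dex+GW3965 against GW3965, and 3 higher and 4 lower in Dex against GW3965. It gave no interaction, and neither did the fit of only the arrays compared. Reading listed genes as the mean of their probe sets kept 213 of 224 counts within 1.5 times.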

Other observations

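Neutrophil markers, 1 of 5 of them above background by the mean over all 8 arrays, had summed linear signals of 130 to 131 in Dex+GW3965 livers, 105 to 109 in Dex livers, 102 to 106 in GW3965 livers and 262 to 271 in vehicle livers. S100a8 and S100a9 were above background in vehicle livers, with log2 signals of 5.88 and 5.89 and of 7.22 and 7.25, while in Dex and GW3965 livers the group means of both lay under it, so the sums there hold background signal only. By the same mean over all arrays, dendritic cell markers (2 of 4 above background) summed to 166 to 178 in Dex+GW3965 livers, 145 to 156 in Dex livers, 184 to 194 in GW3965 livers and 193 to 203 in vehicle livers. B cell markers (1 of 3 above background by that mean) summed to 92.7 to 107 in Dex+GW3965 livers, 100.4 to 119 in Dex livers, 120.4 to 126 in GW3965 livers and 180 to 184 in vehicle livers. Stellate cell markers (7 of 8) summed to 1159 to 1161 in Dex+GW3965 livers, 1293 to 1299 in Dex livers, 1226 to 1254 in GW3965 livers and 1556 to 1691 in vehicle livers. Their part in the levels of the GTPases and chemokines was not tested.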
